A study of Mus musculus with 8 samples.

Results

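The EGF receptor family in SV-LECs was examined through 10 genes taken by name from the count table, which holds 55471 genes. They comprised 6 ligand genes (Areg, Ereg, Hbegf, Tgfa, Btc and Nrg1), 3 receptor genes (Egfr, Erbb2 and Erbb3) and Errfi1, an inhibitor of the receptors. All 10 passed the filter on low counts and were tested. The symbol Nrg1 stood on 2 rows, of which the one with the higher total was used, and the other had a total of 0. SV-LECs are SV40-immortalized lymphatic endothelial cells of mouse mesenteric adventitia, all grown here in high-glucose medium with serum and antibiotics. They were either left untreated or given 10 ng/ml TGFβ1 for 72 h, and poly(A) RNA of 4 samples per group was sequenced to ask which secreted factors TGFβ1 changes in these cells. Because the study's methods call the samples of a group technical replicates of the same line, the errors and FDRs given here cover that variation and not the variation between independent cultures.

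Receptors of the EGF family are tyrosine kinases of the plasma membrane that work in pairs. Amphiregulin (Areg) and TGFα (Tgfa) bind EGFR, epiregulin (Ereg), HB-EGF (Hbegf) and betacellulin (Btc) bind EGFR and ERBB4, and neuregulins such as Nrg1 bind ERBB3 and ERBB4. ERBB2 has no known ligand and serves as a preferred partner, and ERBB3 has little kinase activity of its own. The ligands are made as membrane-bound precursors, most of which are released by ADAM proteases. The receptors signal through RAS and ERK and through PI3 kinase, and MIG6, the product of Errfi1, binds the kinase domain of active EGFR and dampens it.

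Total counts lay between 18952504 and 26386941 per library, and levels are given as CPM, counts scaled to a common library size. Depending on the library, 3 counts, taken as the floor, equalled between 0.113 and 0.162 CPM, for counting error only. Markers of the labelled cell type were uneven. Pdpn, Flt4 and Nrp2 were tested among 9 lymphatic markers, whereas Prox1 had at most 2 counts, Lyve1 at most 3 and Ccl21a 0 in every library. Of 7 pan-endothelial markers 3 were tested (Kdr, Eng and Tek), and Pecam1 and Cdh5 had at most 5 and 2 counts. Summed levels of the lymphatic list were 413 to 448 CPM in untreated and 426 to 440 CPM in treated libraries. Most of this was Pdpn, which was significantly lower, with means of 342 and 313 CPM. Flt4 and Nrp2 were significantly higher, from 21.6 to 29.3 CPM and from 66.4 to 88.3 CPM. Mmrn1, which was not tested, went from a mean of 0.548 CPM to 0.0463 CPM, below the floor. The pan-endothelial list summed to 70.2 to 78.2 against 162 to 170 CPM, mostly from Eng, with means of 62.0 and 143 CPM. Fibroblast markers, of which 6 of 7 were tested, summed to 8109 to 10453 CPM untreated and 10479 to 11915 CPM treated, mostly from the collagen genes Col1a1, which rose by 0.81 on the log2 scale, and Col1a2, which did not pass the test (-0.08). Pdgfrb was also higher, whereas Dcn, Pdgfra and Thy1 were lower, with log2 fold changes of -1.91, -1.47 and -1.07, so that 2 fibroblast markers rose, 3 fell and the median was -0.58. Of 7 epithelial markers 4 were tested. Among the others, Epcam had at most 7 counts, Krt5 at most 4 and Cdh1 2 to 21, with Cdh1 means of 0.234 and 0.464 CPM. The epithelial list summed to 39.5 to 49.1 against 43.4 to 51.1 CPM. Most of this was Krt14, with means of 37.1 and 38.8 CPM, which did not pass the test. Krt8 rose from 0.273 to 1.11 CPM and Krt18 from 0.226 to 1.24 CPM, and Krt19 was lower. Leukocyte markers summed to 5.88 to 7.82 against 14.9 to 17.1 CPM. The leukocyte sum was nearly all Cd68, the 1 gene of 6 that was tested, while Ptprc, Itgam, Adgre1, Cd3e and Cd79a had at most 3 counts in any library. The part of these shifts in the results below was not tested.

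Areg, Ereg and Btc lie in a cluster on chromosome 5 of GRCm38 together with Epgn, the gene of epigen. Epgn (91027464 to 91035215), Ereg (91074622 to 91093646) and Areg (91139599 to 91148432) are on the plus strand with gaps of 39.4 and 46.0 kb, and Btc (91357261 to 91402994) is on the minus strand 208.8 kb beyond Areg, with 2 other annotated genes between them. Egfr (16752203 to 16918158) and Erbb2 (98412470 to 98437716) are both on chromosome 11, and Nrg1, the longest of the genes at 1069.5 kb, is on chromosome 8. RefSeq promoter windows were held for 6 of the 10 genes, and the 250 bases before the start site were searched on both strands for AP-1 (TGANTCA), the cyclic AMP response element (TGACGTCA), the TATA box (TATAAA), the GC box (GGGCGG), TEAD (GGAATG) and a SMAD palindrome (GTCTAGAC). The 4 windows below are shown because Areg and Errfi1 rose and hold the same pair of motifs, because Btc is the ligand gene of the Areg cluster whose change did not pass the test, and because Egfr was the receptor that rose. Capitals mark every match, and each sequence runs 5′ to 3′ on the strand of its gene (RefSeq, GRCm38.p6).
Areg, chr5:91139349-91139598, plus strand: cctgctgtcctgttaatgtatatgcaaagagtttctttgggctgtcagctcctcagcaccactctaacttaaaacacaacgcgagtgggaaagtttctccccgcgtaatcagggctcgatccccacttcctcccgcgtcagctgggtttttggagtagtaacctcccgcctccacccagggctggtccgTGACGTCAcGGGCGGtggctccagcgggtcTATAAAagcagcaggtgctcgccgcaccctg
Errfi1, chr4:150854820-150855069, plus strand: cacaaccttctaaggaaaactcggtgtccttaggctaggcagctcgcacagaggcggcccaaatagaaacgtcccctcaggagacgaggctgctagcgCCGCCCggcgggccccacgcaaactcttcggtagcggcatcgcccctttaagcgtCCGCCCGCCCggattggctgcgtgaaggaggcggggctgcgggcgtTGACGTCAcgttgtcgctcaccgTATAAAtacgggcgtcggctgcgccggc
Btc, chr5:91402995-91403244, minus strand: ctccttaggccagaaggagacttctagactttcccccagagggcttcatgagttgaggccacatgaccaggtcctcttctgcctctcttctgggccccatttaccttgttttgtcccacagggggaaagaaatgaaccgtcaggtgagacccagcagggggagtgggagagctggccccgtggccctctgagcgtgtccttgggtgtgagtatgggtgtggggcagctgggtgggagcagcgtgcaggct
Egfr, chr11:16751953-16752202, plus strand: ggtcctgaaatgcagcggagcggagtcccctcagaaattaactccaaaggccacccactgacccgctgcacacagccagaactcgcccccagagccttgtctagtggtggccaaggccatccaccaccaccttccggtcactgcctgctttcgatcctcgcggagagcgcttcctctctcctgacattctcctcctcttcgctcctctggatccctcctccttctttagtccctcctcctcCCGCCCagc

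The Areg window held the cyclic AMP response element 61 bases before the start site, a GC box at 52 and a TATA box at 31. The Errfi1 window held the same element at 51 bases, a TATA box at 28 and 3 GC boxes, of which the pair nearest the start overlap. Among all 32851 promoter windows of this length 1.55% held TGACGTCA, 12.4% TATAAA and 0.119% both, and 32.7% held the GC box. The pair of TGACGTCA and TATAAA was counted because the Areg and Errfi1 windows hold it, so its share is a description only. Errfi1 has another start site, and its window held only a TEAD match at 65 bases. Which start site these cells use was not tested. Egfr held a GC box at 9 bases before the start, Tgfa held 2 GC boxes, Erbb2 held a TEAD match and Epgn a TATA box, and none of the letters searched occurred in the Btc window. AP-1 and TEAD letters were present in 6.75% and 12.6% of all windows and the SMAD palindrome in 0.167%. These matches describe the letters of the windows and not the binding of a factor.

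After TGFβ1, 7 of the 10 genes were significantly higher, 2 were significantly lower, and Btc did not pass the test (the likelihood ratio test of edgeR, with the false discovery rate, FDR, computed by Benjamini-Hochberg over 13818 genes and required to be under 0.05). TGFβ1 moved most of the transcriptome, with 75.6% of all genes tested called in either direction, 37.6% higher and 38.0% lower, so that being called says little about these genes. The size of the change differed more. Significantly higher with a log2 fold change above 1 were 5 of the 10 genes against 10.9% of all genes tested, and with a log2 fold change above 2 were 2 of the 10 against 3.60%. The median log2 fold change was 1.07 for the 10 genes and -0.01 for all genes tested. The 10 genes were chosen with earlier results of these data known, so these comparisons are a description and not a test. The groups did not overlap in 8 of the 10 genes, 7 of them higher and 1 lower, against 69.8% of all genes tested, 34.7% higher and 35.1% lower. In cultures measured in bulk, a different share of cells that express a gene and a different amount of RNA per cell cannot be told apart.

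**Figure D1:**
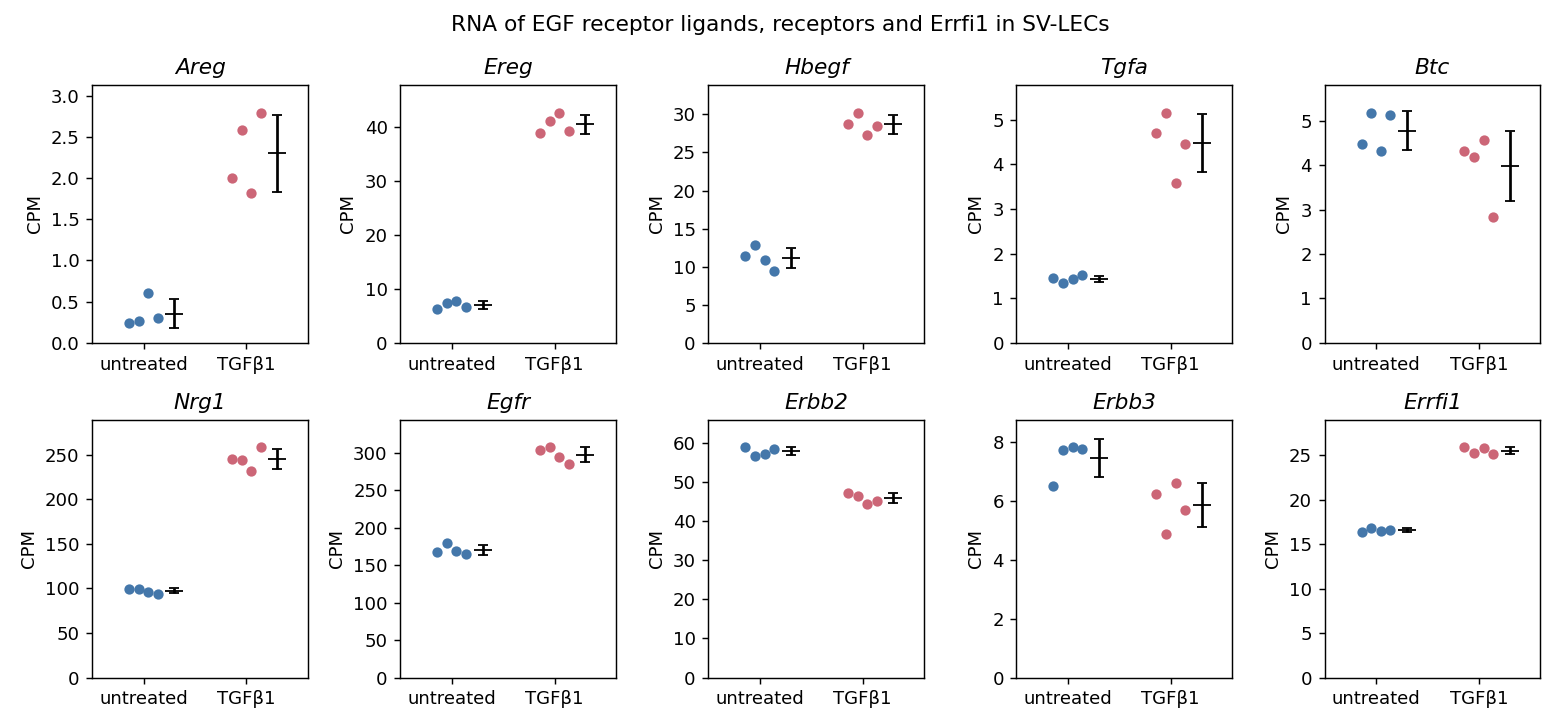
Level in CPM (y axis from 0) of each of the 10 genes in the 4 untreated (blue) and 4 TGFβ1-treated (red) libraries, with the mean and SD as a black bar. The treated points lie above the untreated points for Areg, Ereg, Hbegf, Tgfa, Nrg1, Egfr and Errfi1 and below them for Erbb2, and the groups overlap for Btc and Erbb3.

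Among the ligands, Areg and Ereg showed the largest log2 fold changes, and their order was not stable. Areg was ahead in the values given here and Ereg with a prior count of 2 (2.51 against 2.43) and without untreated replicate 2 (2.55 against 2.54). Amphiregulin is a ligand of EGFR alone. Its level was 0.241, 0.263, 0.611 and 0.304 CPM in untreated libraries 1 to 4 and 2.00, 2.58, 1.82 and 2.79 CPM in the treated libraries. The untreated values rested on 5 to 14 counts and the treated values on 37 to 72, and the lowest treated library was still above the highest untreated library, replicate 3, which stood above the other untreated libraries. Areg thus went from 0.355 ± 0.173 to 2.30 ± 0.463 CPM (SD, 4 libraries in each group), and its log2 fold change was 2.69 with an SE of 0.304 (edgeR FDR = 3.34e-23).

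Ereg, the neighbour of Areg, rose by nearly as much at a higher level, 1.70 against 0.292 CPM per kb of exon in untreated cells. Epiregulin binds EGFR and ERBB4. Its level was 6.22, 7.47, 7.77 and 6.64 CPM in the untreated and 39.0, 41.2, 42.8 and 39.3 CPM in the treated libraries. The groups were far apart and each was narrow. Ereg was 5.74-fold higher after TGFβ1 (log2 fold change 2.52, SE 0.0793, edgeR FDR = 8.16e-246). The 95% interval for Areg, 2.09 to 3.28, covers that of Ereg, 2.37 to 2.68.

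Tgfa, which encodes TGFα, had the lowest mean level per length of the 6 ligands in both groups. It stood at 1.45, 1.35, 1.44 and 1.52 CPM in the untreated and 4.71, 5.16, 3.59 and 4.46 CPM in the treated libraries. The untreated values were close to each other and the treated values more spread, with replicate 3 lowest. Tgfa was 3.11-fold higher after TGFβ1 (log2 fold change 1.64, SE 0.169, edgeR FDR = 1.70e-23).

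Hbegf on chromosome 18 encodes HB-EGF, a ligand that binds heparan sulphate. Its level was 11.4, 12.8, 10.9 and 9.48 CPM in the untreated and 28.7, 30.2, 27.3 and 28.5 CPM in the treated libraries. All treated libraries lay above all untreated libraries, and the untreated libraries differed more among themselves in proportion. Hbegf was 2.56-fold higher after TGFβ1 (log2 fold change 1.36, SE 0.0822, edgeR FDR = 5.20e-61).

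Nrg1, the neuregulin gene, had the highest level per length of the ligands in both groups. It stood at 99.9, 99.6, 96.6 and 94.3 CPM in the untreated and 245, 245, 231 and 258 CPM in the treated libraries, with no overlap. Its log2 fold change, 1.33 with an SE of 0.0456 (edgeR FDR = 1.23e-181), was close to that of Hbegf, and their 95% intervals, 1.24 to 1.42 and 1.19 to 1.52, overlap. Counts were summed over the whole gene, so its many isoforms were not told apart. Stretches of read length shared with an opposite-strand gene made up 3.81% of Nrg1, 1.65% of Ereg and 0.693% of Tgfa, and none was found for the other 7 genes. Whether strand was used in counting is not given in the sources used here.

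Btc, at the far end of the cluster that holds Areg and Ereg, was the only ligand whose change did not pass the test. Betacellulin binds EGFR and ERBB4. Its level was 4.48, 5.18, 4.32 and 5.12 CPM in the untreated and 4.33, 4.19, 4.58 and 2.83 CPM in the treated libraries. The groups overlapped, and treated replicate 4 was lower than the other treated libraries. For Btc the log2 fold change was -0.28 (95% interval -0.57 to 0.02, edgeR FDR = 0.0830). It ranged from -0.36 to -0.13 when single libraries were left out, and Btc passed the test without TGFβ1 replicate 3 (edgeR FDR = 0.0390) and with total counts in place of composition factors (edgeR FDR = 0.0300). Within each library the ratio of Ereg to Btc counts, which does not depend on scaling between libraries, was 1.30 to 1.80 in untreated and 9.01 to 13.9 in treated libraries.

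**Figure D2:**
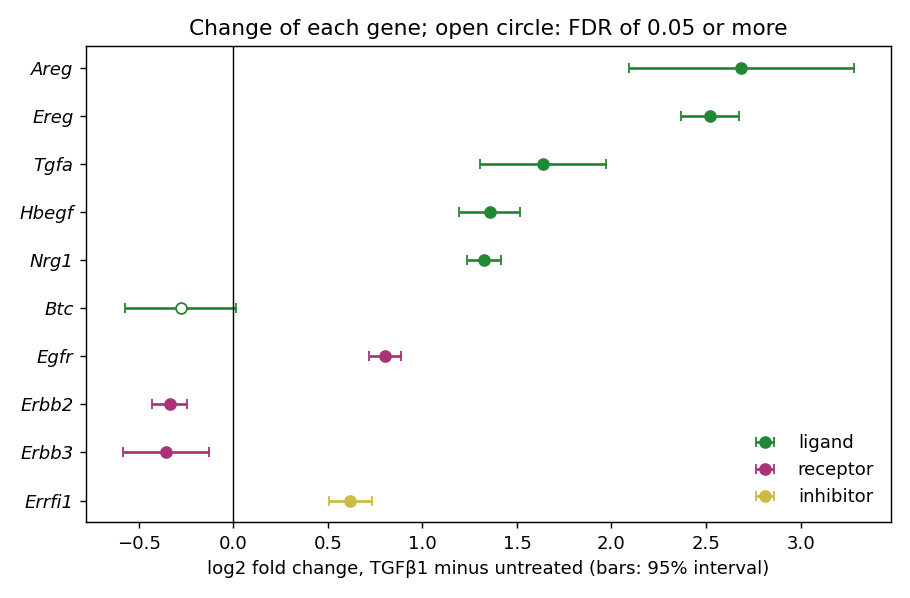
Log2 fold change of TGFβ1-treated over untreated SV-LECs (x axis) with its 95% interval for the 6 ligands (green), 3 receptors (purple) and Errfi1 (yellow), where filled circles have an FDR under 0.05. Areg at 2.69 and Ereg at 2.52 lie furthest right, Btc at -0.28 has an interval that includes 0, and of the receptors Egfr lies above 0 while Erbb2 and Erbb3 lie below it.

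The receptor genes moved in different directions. Egfr was at 168, 179.8, 168 and 165 CPM in the untreated and 303, 307, 295 and 285 CPM in the treated libraries. The groups did not overlap. Egfr rose 1.75-fold (log2 fold change 0.80, SE 0.0436, edgeR FDR = 3.04e-74). Erbb2, which encodes the receptor without a known ligand, was at 58.8, 56.6, 57.2 and 58.5 CPM in the untreated and 47.2, 46.4, 44.3 and 45.2 CPM in the treated libraries. Its groups did not overlap either, in the opposite direction. Erbb2 fell by 0.34 on the log2 scale (SE 0.0477, edgeR FDR = 6.15e-12). A stretch of 9 exon bases of Erbb2 overlaps Mien1 on the opposite strand, which is shorter than a read.

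Erbb3, the gene of the neuregulin receptor with little kinase activity, had the lowest level per length of the receptors. Its level was 6.50, 7.74, 7.82 and 7.76 CPM in the untreated and 6.22, 4.87, 6.59 and 5.71 CPM in the treated libraries. The groups overlapped because untreated replicate 1 lay below treated replicate 3. Its log2 fold change was -0.36 with an SE of 0.116 (edgeR FDR = 0.00343), and it stayed under the threshold with each library left out in turn, at values from -0.42 to -0.28. The ratio of Egfr to Erbb2 counts within a library was 2.82 to 3.18 in untreated and 6.31 to 6.64 in treated libraries.

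Errfi1 showed the tightest replicates of the 10 genes. It stood at 16.4, 16.9, 16.5 and 16.6 CPM in the untreated and 25.9, 25.3, 25.8 and 25.2 CPM in the treated libraries. The groups did not overlap, and Errfi1 rose 1.54-fold (log2 fold change 0.62, SE 0.0590, edgeR FDR = 2.17e-25). The 95% intervals of Errfi1, 0.50 to 0.74, and Egfr, 0.72 to 0.89, overlap. The ratio of Errfi1 to Egfr counts was 0.0938 to 0.101 in untreated and 0.0823 to 0.0883 in treated libraries, ranges that do not overlap.

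To compare levels between genes, CPM were divided by the length of all annotated exons of a gene in kb. In untreated SV-LECs the order was Egfr (15.0 ± 0.586 CPM per kb), Erbb2 (11.1 ± 0.197), Nrg1 (9.43 ± 0.256), Errfi1 (4.63 ± 0.0595), Hbegf (2.31 ± 0.285), Ereg (1.70 ± 0.175), Erbb3 (1.24 ± 0.105), Btc (1.06 ± 0.0971), Areg (0.292 ± 0.142) and Tgfa (0.222 ± 0.0107), each as mean and SD of 4 libraries. Erbb3 overlapped with Btc, and Areg with Tgfa, while the other neighbours in this order were apart in every library. In treated SV-LECs Nrg1 (23.7 ± 1.06 CPM per kb) and Ereg (9.83 ± 0.426) had moved past Erbb2 (8.79 ± 0.247), and Areg (1.89 ± 0.381) past Erbb3 (0.972 ± 0.124) and Btc (0.881 ± 0.173). Egfr was still highest at 26.3 ± 0.860 CPM per kb, and Erbb3, Btc and Tgfa overlapped as neighbours at the low end. Ereg moved from the percentile 24.8 of all genes tested to 61.9 on this scale, and Nrg1 from 60.5 to 82.8. Levels per length depend on the annotated exons, which may exceed those that these cells use.

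The 6 ligands summed to 15.0 ± 0.559 CPM per kb in untreated and 42.9 ± 1.20 in treated SV-LECs, and the 3 receptors to 27.4 ± 0.460 and 36.0 ± 1.00 (SD, n = 4). The sum of ligand RNA was 0.549 ± 0.0139 times the sum of receptor RNA before and 1.19 ± 0.0511 times after treatment. Nrg1 held 62.9% ± 1.58 of the ligand sum in untreated and 55.1% ± 1.37 in treated cells, whereas Ereg went from 11.3% ± 0.974 to 22.9% ± 1.46 and Btc from 7.05% ± 0.718 to 2.06% ± 0.445. Hbegf was at 15.3% ± 1.37 and 13.8% ± 0.397, ranges that overlap. Of the receptor sum, Egfr held 54.9% ± 1.22 in untreated and 72.9% ± 0.551 in treated cells, and Erbb2 40.6% ± 1.28 and 24.4% ± 0.454. These shares are descriptions of RNA and were not tested.

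**Figure D3:**
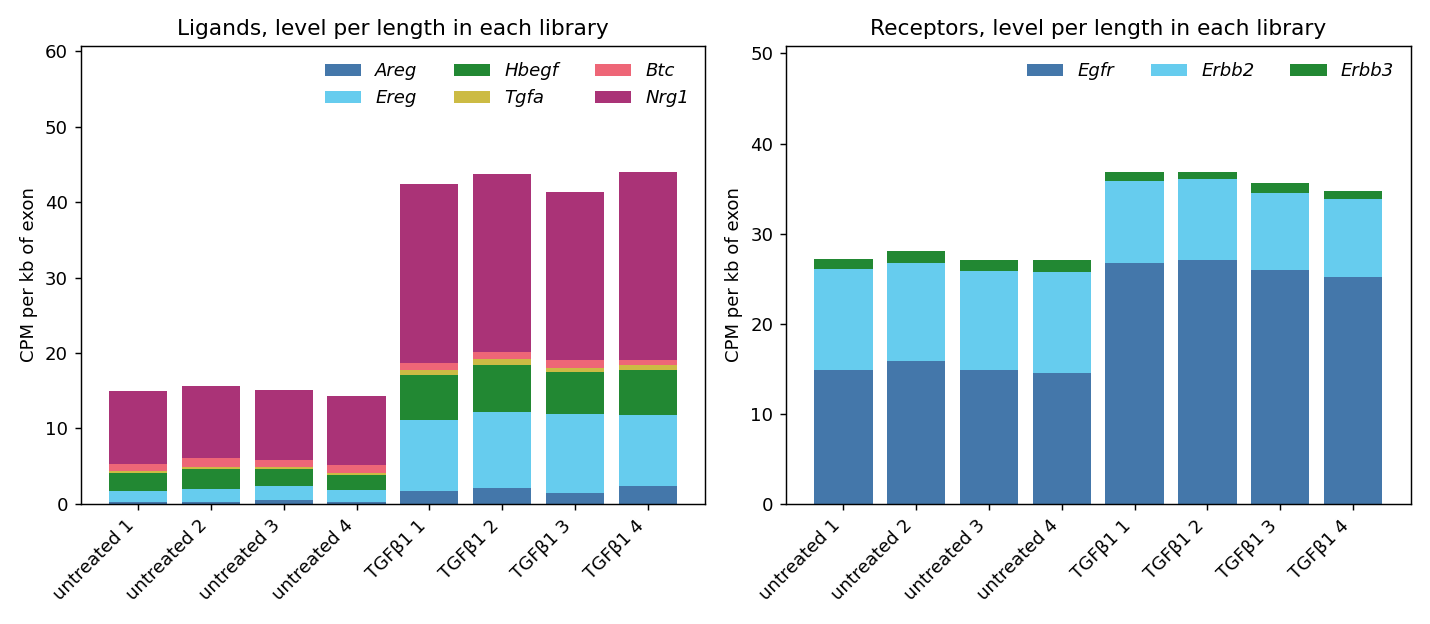
Stacked level in CPM per kb of exon (y axis from 0) of the 6 ligands (left) and 3 receptors (right) in each of the 8 libraries on the x axis. The ligand bars are 14.3 to 15.7 high in untreated and 41.4 to 44.0 in treated libraries, with Nrg1 as the largest part of each, and the Egfr part of the receptor bars grows while the Erbb2 part shrinks.

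The remaining genes of the family were low or had no counts. Of Egf, Epgn, Nrg2, Nrg3, Nrg4 and Erbb4, only Egf and Nrg2 passed the filter on low counts. Egf, the founding ligand, was at 1.28 ± 0.254 CPM before and 2.61 ± 0.463 CPM after TGFβ1 (SD, n = 4; log2 fold change 1.00, edgeR FDR = 2.27e-07). Nrg2, another neuregulin, fell from 4.03 ± 0.555 to 2.98 ± 0.487 CPM (log2 fold change -0.42, edgeR FDR = 0.00823). Epgn, which lies beside Ereg, had 1 to 6 counts per library, Nrg4 had at most 2, and Nrg3 and Erbb4 had 0 counts in every library. With a floor of 3 counts, any Erbb4 RNA was below 0.162 CPM in each library, and Erbb3 was the only gene of a neuregulin-binding receptor with counts.

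Genes that release or carry the ligands were mostly higher. Of 14 such genes 9 were significantly higher and 3 significantly lower, with a median log2 fold change of 0.50. The share called was 85.7%, beside 75.6% of all genes tested, of which 37.6% were higher and 38.0% lower. Adam8, a protease of the ADAM family, was at 0.954 ± 0.137 CPM in untreated and 7.46 ± 0.421 CPM in treated cells (log2 fold change 2.95, edgeR FDR = 2.00e-85). Cd44, which encodes a hyaluronan receptor that can carry HB-EGF, rose by 1.99 and Adam12 by 1.40 on the log2 scale. Adam17, the main sheddase of amphiregulin, TGFα and HB-EGF, went the other way from 140 ± 2.38 to 121 ± 4.00 CPM (log2 fold change -0.21, edgeR FDR = 5.44e-07). Adam10, the main sheddase of betacellulin, and Cd9, whose product associates with the HB-EGF precursor, fell by 0.12 and 0.21. Rhbdf2 and Frmd8, whose products form a complex with ADAM17, rose by 0.58 and 0.63 and were chosen after their values were seen. Rhbdf1, the related gene in the same list, did not change, at 60.2 CPM untreated and 60.1 CPM treated (log2 fold change -0.0008, edgeR FDR = 0.993). Cnih1, a cornichon involved in transport of TGFα, did not pass the test (log2 fold change -0.09, edgeR FDR = 0.0517), and passed in 4 alternatives, which were edgeR's quasi-likelihood test (FDR = 0.0335), total counts (FDR = 0.000421), no filter (FDR = 0.0238) and leaving out untreated replicate 3 (FDR = 0.0438).

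Adaptors and kinases downstream of the receptors moved by little and in both directions. Of 34 genes 33 were tested, 12 were significantly higher and 13 significantly lower, and the median log2 fold change was -0.05. The share called was 75.8%, close to the 75.6% of all genes tested. With total counts and no composition factors, 7 were higher and 16 lower. Hras, Araf and Src rose by 0.67, 0.60 and 0.56 on the log2 scale. Mapk3, the gene of ERK1, fell by 0.68 on the same scale, and Pik3r1, which encodes a regulatory subunit of PI3 kinase, fell by 0.58.

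In a list of 20 genes for restraint, endocytosis and sorting of the receptors, 13 were significantly higher and 3 significantly lower. Not every product in the list need restrain the receptors. The median log2 fold change was 0.17. The share called was 80%, beside 75.6% of all genes tested, of which 37.6% were higher and 38.0% lower. With total counts and no composition factors, 9 were higher and 4 lower. Sh3kbp1, an adaptor of CBL in receptor endocytosis, rose by 1.21 on the log2 scale, Lrig1, a membrane protein that promotes receptor degradation, by 0.75, and Cbl, a ubiquitin ligase of EGFR, by 0.64. Lrig2, the kinase gene Tnk2 and Tsg101 fell by 0.36, 0.33 and 0.14. Tsg101, a sorting factor of endosomes, lost its call without untreated replicate 4 (edgeR FDR = 0.0524) and at the threshold of 0.01 (edgeR FDR = 0.0118).

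Of 16 genes known to respond to ERK signalling, 11 were significantly higher and none significantly lower by edgeR's likelihood ratio test. The median log2 fold change was 0.51. The share called was 68.8%, below the 75.6% of all genes tested, of which 37.6% were higher and 38.0% lower. Whether ERK signalling itself changed was not tested. Lower genes numbered 0 at an unadjusted p under 0.05, 0 with the quasi-likelihood test and 0 with DESeq2, and 1 with total counts (Spry4) or without TGFβ1 replicate 3 (Spry1). Fosl1, an AP-1 factor, was at 3.88 ± 0.118 CPM in untreated and 44.4 ± 1.28 CPM in treated cells (SD, n = 4), 3.52 higher on the log2 scale. Etv4, an ETS factor, rose by 2.25 and the ERK phosphatase gene Dusp4 by 1.23 on the log2 scale. The Sprouty genes Spry1 and Spry4, feedback inhibitors of receptor signalling, did not pass the test, with log2 fold changes of -0.11 (edgeR FDR = 0.241) and -0.14 (edgeR FDR = 0.191). Spry2, another Sprouty gene of the list, was significantly higher (log2 fold change 0.29, edgeR FDR = 7.85e-06) and was chosen after its values were seen. Ier3, Dusp5 and Spred1 did not pass the test either, with log2 fold changes of -0.02, 0.03 and 0.06. Spry4 passed with total counts (-0.21, edgeR FDR = 0.0485) and Spry1 without TGFβ1 replicate 3 (-0.19, edgeR FDR = 0.0433). Of the tested genes in these last 4 lists 68.8% to 85.7% were called, beside 75.6% of all genes, and no test of a list against other genes was made.

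**Figure D4:**
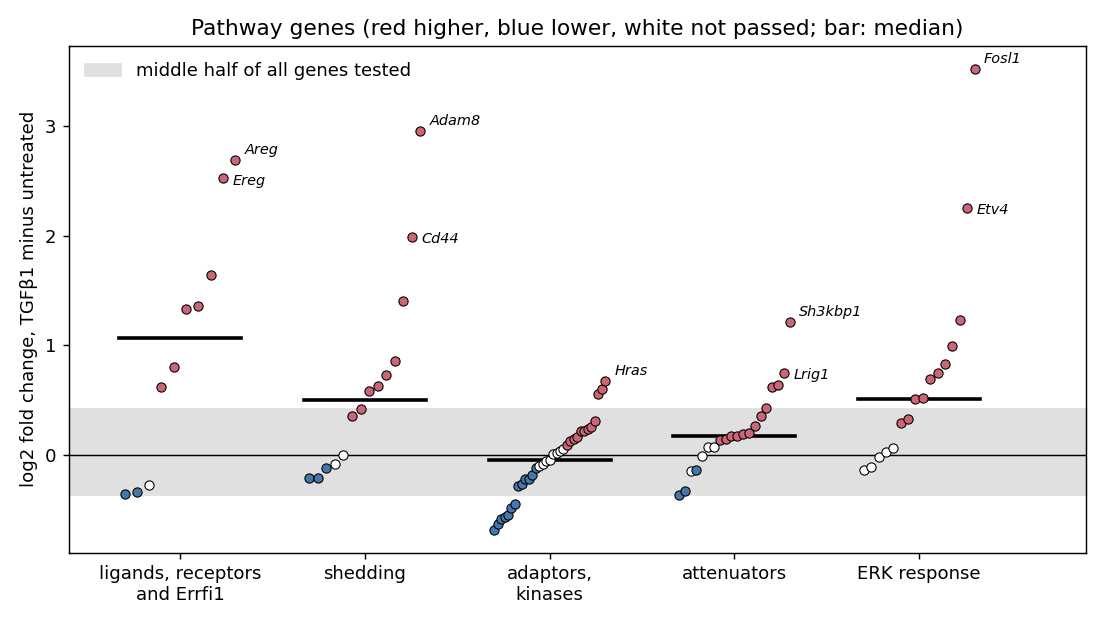
Log2 fold change after TGFβ1 (y axis) of the tested genes in 5 groups on the x axis, ordered by value, with red for significantly higher, blue for significantly lower, white for genes that did not pass and a bar at the median of each group. The grey band from -0.363 to 0.419 holds the middle range between the quartiles of all genes tested, and the medians are 1.07 for ligands, receptors and Errfi1, 0.50 for shedding, -0.05 for adaptors and kinases, 0.17 for attenuators and 0.51 for ERK response genes.

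The genes whose log2 CPM followed Areg most closely over the 8 libraries were Nkain1, Capn2 and Tubb3, with Pearson's r of 0.992, 0.990 and 0.990. For Egfr they were Ncam1, H2-Ob and Kcnn3 (r of 0.999 to 1.00), and for Errfi1 they were Tshr, Adamts12 and Cmah (r of 0.999 in each). The libraries fall into 2 treatment groups, and any gene with a large and even change gives a high r, so these values are a description only.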

How the data were processed

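Poly(A) RNA of 4 untreated and 4 TGFβ1-treated SV-LEC samples was sequenced with stranded libraries and single-end reads of 75 bases. The authors aligned reads to GRCm38 and deposited raw counts per gene; the submitters' processing notes name bcl2fastq 2.20.0.422, STAR 2.7.3a and featureCounts 1.5.1. The annotation release and strand setting are not given in the sources used here. Samples were grouped by their titles. The deposited counts of all 55471 genes were filtered with filterByExpr, scaled by TMM and compared with glmFit and glmLRT in edgeR 4.0.16 (R 4.3.3), the test that the study's methods name, with an FDR threshold of 0.05 and a prior count of 0.125. CPM use TMM-normalized library sizes. Standard errors come from the fitted negative binomial model, and 95% intervals are 1.96 standard errors to each side. The pipeline was tested on simulated data, where the likelihood ratio test made false calls well above its nominal rate and the quasi-likelihood test made fewer, though still above that rate. Replicate pairs differed by more than sampling noise (chi-square over degrees of freedom 2.37 to 7.84 in 12 pairs).

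Exon lengths, positions and shared stretches came from GENCODE M21, which matched 55230 genes, and promoter windows from RefSeq on GRCm38.p6. The text names the 10 members and, per pathway list, the 3 largest significant changes in each direction, all further family genes and selected genes that failed the test; others are identified. A gene that this rule names is not reported here. For Areg, Egfr and Errfi1 the 3 genes with the highest Pearson's r were added. Members and lists were chosen with earlier results of these data known. Alternative settings were DESeq2 1.42.0, edgeR's quasi-likelihood test, DESeq2 size factors, total counts, no filter, a filter of 1 CPM required in 4 or more libraries, a threshold of 0.01, a prior count of 2, a replicate block and each library left out.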

Additional observations from a re-analysis of the deposited data

Results flagged for a closer look

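Erbb3 in untreated replicate 1 stood apart from the other untreated libraries, at 6.50 CPM against 7.74 CPM in the nearest one, a gap of 0.939 of the range of the group where Dixon's 95% critical value for 4 samples is 0.829. It was the only value past that limit among the 20 sets of 4 libraries examined for the 10 genes. Areg in untreated replicate 3, at 0.611 CPM against 0.304 CPM in the nearest library, came just under it. Chance alone gives about 1 in 20. Erbb3 was lower after TGFβ1 with and without untreated replicate 1. The cause was not tested.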

How the results depend on the processing

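Across 17 alternatives, 9 of the 10 genes kept their direction and their side of the threshold in each. The exception was Btc, which was significantly lower with total counts and no composition factors (log2 fold change -0.35, edgeR FDR = 0.0300) and without TGFβ1 replicate 3, and ranged from -0.36 to -0.13 with single libraries left out; the cause was not tested. The log2 fold change of Areg, the gene with the fewest counts, ranged from 2.43 with a prior count of 2 to 2.71, and from 2.54 to 3.09 with single libraries left out. With total counts, 7 instead of 12 adaptor and kinase genes were higher, and 1 instead of 0 ERK response genes was lower. Leaving out single libraries gave 0 to 1 lower ERK response genes. No deviation shared by replicate number was seen. Deviations of same-numbered libraries from their group means correlated at -0.193 to -0.0336, and 0 of 4 untreated libraries correlated best with their own number. These values cannot show whether the samples were handled in pairs. With the replicate number as a block, 5075 genes were higher and 5077 lower instead of 5198 and 5251, and all 10 genes kept their calls. Low counts limit the precision of Areg, whose untreated libraries held 5 to 14 counts. Epgn, Nrg3, Nrg4 and Erbb4 did not pass the filter on low counts, and Nrg3 and Erbb4 had 0 counts in every library. Whether sequencing depth was the reason was not tested.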
